A study of Mus musculus with 18 samples.

Results

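Of 18 RNA-seq libraries made from the left ventricle of the mouse heart, 8 held at least 10 TPM, the share of transcripts scaled for gene length and library size, of Alb, which encodes albumin, and 7 held less than 5. These 15 libraries were chosen from their Alb TPM alone, and the 3 libraries between the limits were left out of the comparison. Alb ranged from 12.04 to 113 TPM, with a median of 22.8, in the high libraries and from 0.07 to 3.96 TPM, with a median of 0.9, in the low libraries. Just inside and outside the limits, Alb was 12.04 TPM against 9.75 TPM at the upper one and 3.96 TPM against 7.01 TPM at the lower one. Since Alb chose the groups, its own difference is a description, and so is that of every other transcript that comes with the same liver RNA.

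Albumin is made by hepatocytes, the main cell of the liver. Hepatocytes also make most plasma proteins, among them apolipoproteins, clotting factors, complement components and transport proteins, and they hold the cytochrome P450 (Cyp) enzymes that act on drugs, steroids and bile acids. Several clotting, complement and Cyp genes are also used by cells of the heart, such as endothelial cells, fibroblasts and macrophages, so membership of one of these families does not tell where a transcript was made.

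All mice, WT and WWP2Mut/Mut, received angiotensin II (AngII), a hormone that constricts vessels and drives cardiac fibrosis, at 500 ng/kg/min for 28 days from 8 weeks of age, and no library came from a mouse without AngII. WWP2Mut/Mut mice carry a deletion of 4 bases in coding exon 2 of the E3 ubiquitin ligase gene Wwp2, made with CRISPR, which shifts the reading frame. On western blots the study saw no WWP2 band of the full-length or N-terminal size in them, and it reports unchanged C-terminal protein in the heart. WT mice were littermates on the C57BL/6J background. The 8 high libraries came from 5 WT and 3 WWP2Mut/Mut mice, the 7 low libraries from 2 WT and 5 WWP2Mut/Mut mice, and the 3 between from 2 WT and 1 WWP2Mut/Mut mouse. Wwp2 was 3.83 to 6.01 TPM in the WT libraries and 1.19 to 3 TPM in the WWP2Mut/Mut libraries, without overlap.

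Library totals ran from 24566994 to 37451087 counts. The groups were not evenly spread over the sequencing lanes. All 4 libraries of lane 1 were high, lane 3 held 3 low libraries, 1 between and no high one, and lanes 2 and 4 each held 2 high and 2 low. Lane and Alb group therefore cannot be told apart over the whole set, and values within lanes 2 and 4 are given for the genes named in several of the lists. RNA concentration, both absorbance ratios, the deposited gene body coverage fraction and the library total did not pass an exact permutation test between the Alb groups (two-sided, 5 measures, adjusted p of 0.473 or 0.679). Gene body coverage fraction was 0.0416 ± 0.00875 (SD, n = 8) in high and 0.0357 ± 0.00767 (SD, n = 7) in low libraries (exact p = 0.188).

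The other liver markers went with Alb. Apoa1, the main protein of high-density lipoprotein, was 0 at lowest, 0.23 at the median and 2.09 TPM at highest in the low libraries, and 6.14, 9.74 and 40.7 TPM in the high ones. Mup3, a major urinary protein that male mouse liver secretes, was 0 to 2.11 TPM (median 0.33) against 6.05 to 41.4 TPM (median 12.4). Ttr, the carrier of thyroid hormone and retinol-binding protein, was 0.1 to 1.56 TPM (median 0.36) against 3.35 to 22.4 TPM (median 5.42). For all 3 markers the groups did not overlap, and WT mouse 45-1 was the highest library. In the edgeR fit with genotype as covariate the log2 fold changes of high over low were 4.18 ± 0.73 (SE) for Apoa1, 4.12 ± 0.71 for Mup3 and 3.69 ± 0.64 for Ttr (edgeR adjusted p of 0.0053, 0.0052 and 0.0052). The ratio of Apoa1 to Ttr was between 1.48 and 1.85 over the 8 high libraries, and the ratio of Apoa1 to Mup3 between 0.745 and 1.02, and that of Mup3 to Ttr between 1.56 and 2.48.

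**Figure D1:**
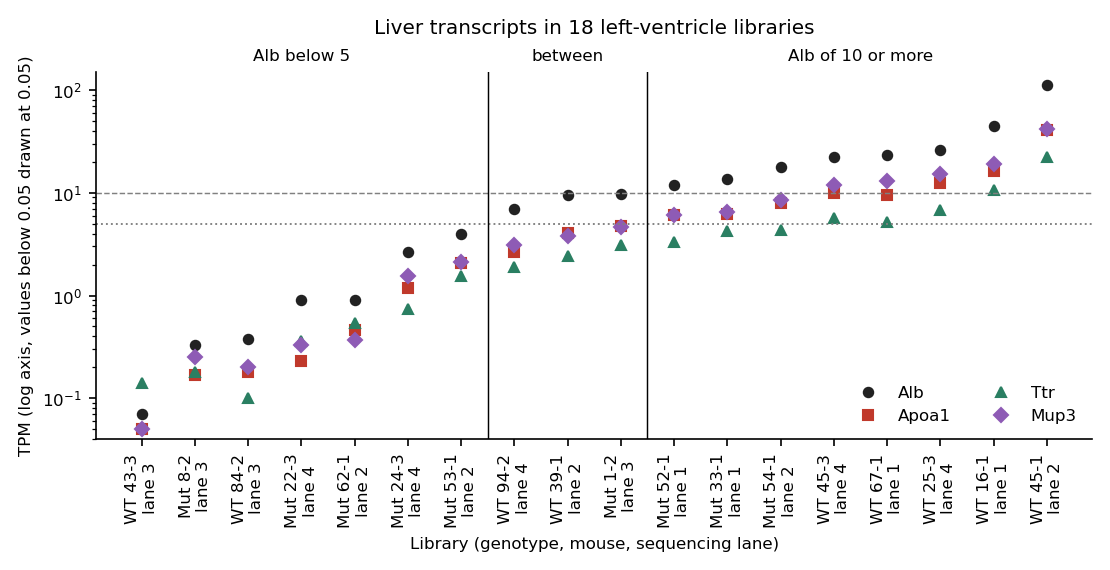
TPM (log axis) of Alb, Apoa1, Ttr and Mup3 in each of the 18 libraries, ordered by Alb, with genotype, mouse and lane on the x axis and lines at 5 and 10 TPM. Each point is 1 library, and the 3 other markers rise with Alb through the low, between and high libraries.

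Within lane 2, Apoa1 averaged 24.4 TPM in the 2 high and 1.28 TPM in the 2 low libraries, and within lane 4 it averaged 11.1 and 0.7 TPM. The 2 high libraries of lane 2 were WWP2Mut/Mut mouse 54-1 at 7.98 TPM and WT mouse 45-1 at 40.7 TPM. Each lane 2 average of high libraries given below includes WT mouse 45-1. In the 4 high and 4 low libraries of these lanes, fitted with genotype and lane, 187 of the 188 genes called higher below had a positive sign, with a median log2 fold change of 2.35. These 188 were chosen in a fit that held the same 8 libraries, so their sign here is no independent support. None of 22862 genes passed the edgeR threshold there, while 372 had an unadjusted p below 0.05, 106 of them among those 188 in the same direction. All 4 low libraries of these lanes were WWP2Mut/Mut.

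Across 24343 genes other than Alb, 188 were higher in the high libraries, 0.772% of those tested, and 10 were lower, 0.0411%. The liver lists (plasma proteins, enzymes and transporters, transcription factors), clotting, complement and Cyp genes held 120 of the 188. In 181 of the 188 the median of the low libraries was below 1 TPM, and in 86 it was 0. The median log2 fold change of the 188 was 3.98, and 44 of them had 3 counts or fewer over the 7 low libraries together, so their fitted folds depend on the prior count. For 131 of the 188 every high library lay above every low one, against 139 genes, or 0.571%, of all genes tested. The median of the 3 libraries between lay from the low median to the high median for 185 of the 188. The number higher was 94 without WT mouse 43-3 and 101 without WT mouse 84-2, and the number lower ran from 2 without WT mouse 43-3 to 27 without WT mouse 45-1. With lane as a further term none of 24343 genes passed in either direction, while 493 had an unadjusted p below 0.05. Of the 188, all had a positive sign there, 176 had an unadjusted p below 0.05 and the median log2 fold change was 2.90. These values come from the libraries that had also chosen the 188. With lane and RNA concentration 18 genes were called higher, but the concentration of 1.68 recorded for WT mouse 43-3 lies far below the others and may be an entry error. Without lane as a term 89 genes were called higher within WT and 2 within WWP2Mut/Mut libraries. In bulk tissue, fewer cells of a type and less RNA per cell cannot be told apart.

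Liver genes had to differ here because the libraries were split by Alb, so their counts below describe which genes follow Alb and do not test it.

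**Figure D2:**
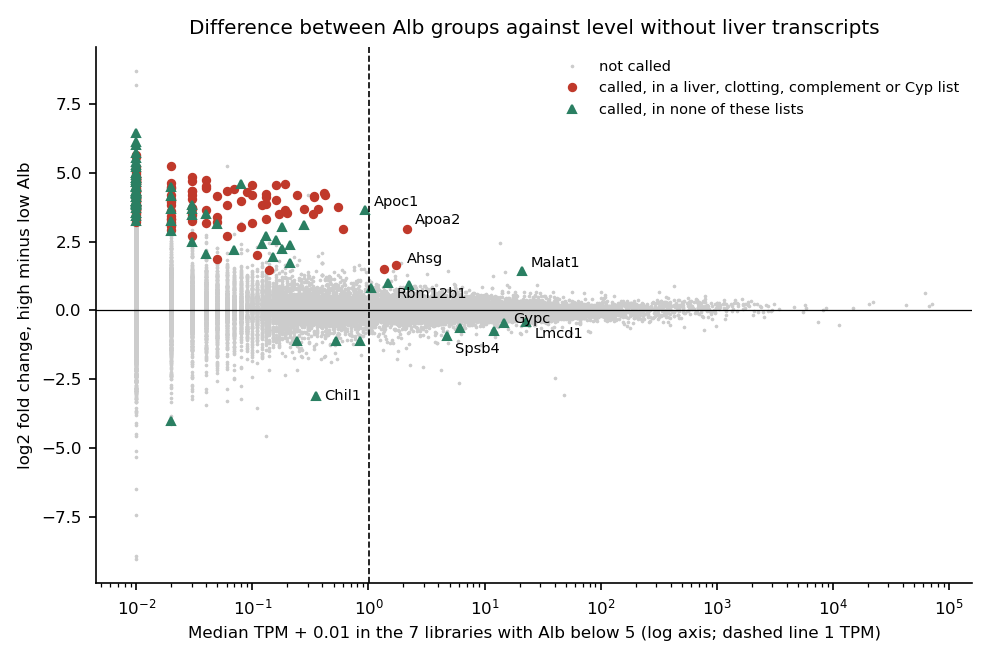
log2 fold change of high over low libraries against the median TPM + 0.01 of the low libraries (log axis), 1 point per gene. Filled red circles are called genes of the liver, clotting, complement or Cyp lists and green triangles called genes of none of these lists, and 181 of the 188 genes called higher lie left of the dashed line at 1 TPM.

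The promoters of 4 genes that follow liver RNA give the sequence context of the marker and of 1 clotting, 1 complement and 1 Cyp gene. They were picked, after the search, from the genes named here whose window holds a searched motif. Each runs 5′ to 3′ on the gene's strand, from 250 bases before to 50 bases after the RefSeq start in GRCm38.p6, with the motif match in capitals. Alb lies on the plus strand at chr5:90460620-90460919, Fga (fibrinogen alpha chain) on the plus strand at chr3:83025903-83026202, C4bp (an inhibitor of complement C4b) on the minus strand at chr1:130661569-130661868 and Cyp3a11 (a drug and steroid hydroxylase) on the minus strand at chr5:145879805-145880104.
Alb: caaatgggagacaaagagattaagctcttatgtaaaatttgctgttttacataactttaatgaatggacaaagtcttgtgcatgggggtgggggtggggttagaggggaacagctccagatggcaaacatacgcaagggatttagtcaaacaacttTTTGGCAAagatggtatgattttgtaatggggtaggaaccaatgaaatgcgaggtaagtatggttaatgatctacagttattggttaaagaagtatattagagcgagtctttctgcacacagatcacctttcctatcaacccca
Fga: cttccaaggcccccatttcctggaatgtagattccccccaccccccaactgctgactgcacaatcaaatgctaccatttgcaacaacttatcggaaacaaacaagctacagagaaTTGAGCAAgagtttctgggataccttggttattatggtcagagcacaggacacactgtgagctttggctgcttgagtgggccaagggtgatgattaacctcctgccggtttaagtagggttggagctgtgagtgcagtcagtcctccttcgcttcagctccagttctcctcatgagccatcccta
C4bp: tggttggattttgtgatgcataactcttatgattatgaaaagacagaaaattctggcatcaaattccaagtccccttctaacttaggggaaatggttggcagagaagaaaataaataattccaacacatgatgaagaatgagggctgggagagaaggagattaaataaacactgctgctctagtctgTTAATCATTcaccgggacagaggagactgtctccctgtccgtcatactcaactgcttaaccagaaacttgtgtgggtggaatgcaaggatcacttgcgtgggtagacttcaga
Cyp3a11: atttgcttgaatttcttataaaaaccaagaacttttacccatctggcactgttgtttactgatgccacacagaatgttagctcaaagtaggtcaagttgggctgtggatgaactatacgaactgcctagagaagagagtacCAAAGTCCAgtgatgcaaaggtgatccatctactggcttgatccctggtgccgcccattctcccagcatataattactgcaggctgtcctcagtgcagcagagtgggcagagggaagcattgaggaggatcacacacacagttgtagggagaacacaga
The capitals mark TTGCNNAA, a C/EBP motif, in Alb and Fga, TTAATNATT, the core of the HNF1 motif, in C4bp and CAAAGTCCA, an HNF4 motif, in Cyp3a11, each searched on both strands. HNF1, HNF4 and C/EBP are families of transcription factors that are active in hepatocytes.

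RefSeq promoters were matched for 146 of the 188 genes by symbol, with 164 windows. The HNF1 core occurred in 14 of these windows (8.54%) against 1.47% of all 32851 promoter windows. The C/EBP motif occurred in 25.6% against 10.8%, and the HNF4 motif in 3 windows (1.83%) against 0.475%. Among windows of heart-expressed genes that were not called, the 3 shares were 0.561%, 8.21% and 0.371%. Alternative starts of a gene and members of gene families counted as separate windows, so the windows are not independent. These are counts of letters, and a match is not a shown binding site.

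Among 68 plasma protein genes of the liver, all tested, 35 were higher and none lower, against 0.772% and 0.0411% of all genes tested. Their median log2 fold change was 3.46 against 0.03 over all genes tested. Setting the 4 members without any count in the low group at a floor of 3 counts gave a median of 3.26. Apoa2, the second protein of high-density lipoprotein, was 1.23 to 8.78 TPM (median 2.12) in low and 13.9 to 83.97 TPM (median 21.2) in high libraries, with no overlap (log2 fold change 2.97 ± 0.59 SE, edgeR adjusted p = 0.0145). Mup20, a urinary protein that acts as a male pheromone, was 0 to 1.48 TPM in low and 5.57 to 41.8 TPM in high libraries (log2 fold change 4.27 ± 0.74 SE, adjusted p = 0.0054). Apoa5, which controls plasma triglyceride, had the smallest p of the list at low levels, with a high of 0.04 TPM in low and a low of 0.18 TPM in high libraries (4.62 ± 0.54 SE, adjusted p = 0.00087). Of the plasma protein genes, 10 had a median of at least 1 TPM in the low libraries, and 2 of these were higher, Apoa2 and Ahsg. Ahsg, which encodes fetuin-A, an inhibitor of calcification, and was picked with its values in view, was 1.45 to 2.96 TPM (median 1.73) in low and 3.3 to 24.4 TPM (median 5.38) in high libraries without overlap (log2 fold change 1.66 ± 0.30 SE, adjusted p = 0.0078). It was 2.96 TPM in the library with the least Alb.

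The other 8 heart-expressed plasma protein genes did not pass the test. Cp, the copper carrier ceruloplasmin, was 12.6 to 23.9 TPM in low and 10.8 to 29.0 TPM in high libraries (log2 fold change -0.05 ± 0.19 SE, edgeR adjusted p = 0.933). Trf, the iron carrier transferrin, was 22.3 to 36.7 TPM against 34.5 to 82.4 TPM (0.51 ± 0.14 SE, adjusted p = 0.170). Hamp, which encodes hepcidin, a hormone of iron balance, was 0.19 to 16.8 TPM against 1.08 to 12.4 TPM, with the highest value in a low library (-0.26 ± 0.80 SE, adjusted p = 0.921). The other 5 included Agt, Hp, Igfals and Vtn. Apoe, which is in none of the lists and which macrophages make as well as hepatocytes, was 251 to 393 TPM against 267 to 531 TPM (0.20 ± 0.16 SE, adjusted p = 0.659). These 4 genes, Cp, Trf, Hamp and Apoe, were picked with their values in view, and in each the groups overlapped. Within lane 2 Apoa2 averaged 50.8 TPM in high and 5.45 TPM in low libraries and Ahsg 14.3 and 1.61 TPM, and within lane 4 they averaged 24.4 and 3.82 TPM and 6.6 and 1.57 TPM.

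Several of the genes that rose lie side by side in the genome (GRCm38). Apoa1, Apoa4, Apoa5 and Apoc3 rose together within 43.3 kb at chr9:46228580-46271919. Fga, Fgb and Fgg, the 3 fibrinogen chains, lie within 42.1 kb at chr3:83007724-83049863. Of 19 Mup genes tested, 11 rose, all at chr4:60066469-62150863, and of 22 Serpina genes tested 11 rose, all at chr12:103614786-104346144. Over all genes tested 0.772% rose. Members of the Mup and Serpina1 families are near-identical copies, so how reads were split among them is uncertain.

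The liver enzymes and transporters moved in the same way, 40 of 70 higher and none lower (median log2 fold change 3.51), against 0.772% and 0.0411% of all genes tested. Fabp1, the fatty acid carrier of hepatocytes, was 0 to 2.43 TPM (median 0.41) in low and 7.89 to 74.8 TPM (median 11.6) in high libraries, with no overlap (4.19 ± 0.75 SE, edgeR adjusted p = 0.0069). Bhmt, which methylates homocysteine, was at most 0.28 TPM in low and at least 1.01 TPM in high libraries (4.39 ± 0.82 SE, adjusted p = 0.0088). Hgd, an enzyme of tyrosine breakdown, was 0 to 0.13 TPM against 0.29 to 2.66 TPM (4.94 ± 0.64 SE, adjusted p = 0.00087). Within lane 2 Fabp1 averaged 42.7 TPM in high and 1.53 TPM in low libraries, and within lane 4 it averaged 11.02 and 1.32 TPM. Of 16 list members with a median of at least 1 TPM in the low libraries, 1 rose. Of 15 liver transcription factor genes, Hnf4a alone passed, at 0 to 0.01 TPM in low and 0.05 to 0.49 TPM in high libraries (4.76 ± 0.65 SE, adjusted p = 0.0011).

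Of 44 listed clotting and fibrinolysis genes 43 were tested, 19 rose and none fell, against 0.772% and 0.0411% of all genes tested. The median log2 fold change was 1.59. All 19 were among the 28 with a median below 1 TPM in the low libraries, and the 9 of these that did not pass were F5, F7, F8, F9, F11, F13b, Procr, F2rl1 and A2m. Fgg, the fibrinogen gamma chain, was 0 to 0.17 TPM in low and 0.81 to 7.13 TPM in high libraries (log2 fold change 4.85 ± 0.69 SE, edgeR adjusted p = 0.0013). Fga was 0 to 0.1 TPM against 0.5 to 5.71 TPM (4.71 ± 0.73 SE, adjusted p = 0.0025). Serpinc1, which encodes antithrombin, was 0 to 0.29 TPM against 0.46 to 7.69 TPM (3.66 ± 0.62 SE, adjusted p = 0.0042), and F2, prothrombin, was 0 to 0.08 TPM against 0.24 to 2.7 TPM (4.46 ± 0.60 SE, adjusted p = 0.0011). None of these 4 overlapped between the groups. Within lane 2 Fgg averaged 3.62 TPM in high and 0.1 TPM in low libraries, and within lane 4 it averaged 4.43 and 0.095 TPM. The others that rose were F10, F12, Fgb, Plg, Kng1, Kng2, Klkb1, Hrg, Habp2, Proc, Proz, Cpb2, Serpina10, Serpind1 and Serpinf2.

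None of the 15 clotting genes with a median of at least 1 TPM in the low libraries passed the test, and their log2 fold changes ran from -0.46 to 0.33 with a median of 0.00. Over all heart-expressed genes 0.0619% were called higher, so a count of 0 in a list of this size is near the background. Anxa2, a cell-surface receptor for plasminogen, was 44.8 to 64.4 TPM in low and 48.5 to 70.5 TPM in high libraries (0.19 ± 0.14 SE, edgeR adjusted p = 0.643). Tfpi, the endothelial inhibitor of the tissue factor pathway, was 13.7 to 28.4 TPM against 15.1 to 23.1 TPM (-0.23 ± 0.13 SE, adjusted p = 0.532). Vkorc1, which recycles vitamin K, was 14.2 to 19.7 TPM against 13.8 to 24.5 TPM (0.21 ± 0.16 SE, adjusted p = 0.644), and Thbd, thrombomodulin of endothelium, was 7.63 to 18.3 TPM against 7.59 to 18.7 TPM (0.09 ± 0.17 SE, adjusted p = 0.867). In each of these 4 genes the groups overlapped. The other 11 included F13a1, F2r, F3, Ggcx, Plat, Plau, Plaur, Pros1, Thbs1 and Vwf.

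Of 47 listed complement genes 45 were tested, 8 rose and none fell, against 0.772% and 0.0411% of all genes tested. The median log2 fold change was 0.14. The 8 were C8a, C9, Hc (complement C5), Mbl1, Mbl2, Cfi, Cfhr2 and C4bp, all among the 22 tested with a median below 1 TPM in the low libraries, of which 14 did not pass. Mbl2, a mannose-binding lectin that starts the lectin pathway, was 0 to 0.08 TPM in low and 0.1 to 0.84 TPM in high libraries (3.46 ± 0.71 SE, edgeR adjusted p = 0.0196). C8a and C9 belong to the membrane attack complex. C8a was 0 to 0.04 TPM against 0.11 to 0.8 TPM without overlap (4.21 ± 0.58 SE, adjusted p = 0.0011), and C9 was 0 to 0.12 TPM against 0.07 to 1.06 TPM, with 6 of 8 high libraries above all low ones (4.09 ± 0.86 SE, adjusted p = 0.0231). Within lane 2 C8a averaged 0.5 TPM in high and 0.015 TPM in low libraries, and within lane 4 it averaged 0.44 and 0.03 TPM. C4bp had 1 count over the 7 low libraries and 0.04 to 0.54 TPM in the high ones (adjusted p = 0.0011).

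Of 23 complement genes with a median of at least 1 TPM in the low libraries, none passed, with log2 fold changes from -0.76 to 0.70 and a median of -0.02, a count near the same 0.0619%. Clu, clusterin, was 238 to 384 TPM in low and 160 to 338 TPM in high libraries (-0.30 ± 0.11 SE, edgeR adjusted p = 0.415). The macrophage genes C1qa and C1qb, which encode chains of the first component, were 52.4 to 65 TPM against 45.7 to 67.5 TPM and 54.5 to 73.1 TPM against 41.2 to 66.9 TPM (-0.02 ± 0.15 SE, adjusted p = 0.976, and -0.09 ± 0.15 SE, adjusted p = 0.853). Serping1, the inhibitor of that component, was 40.3 to 60.8 TPM against 39.1 to 77.6 TPM (0.14 ± 0.11 SE, adjusted p = 0.657). C3, the central component, which hepatocytes make in large amounts, was 11.9 to 29.3 TPM against 15.3 to 42.0 TPM (0.13 ± 0.16 SE, adjusted p = 0.787), a value chosen after it was seen. All 5 overlapped between the groups.

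Of 121 Cyp genes 73 were tested, 18 rose and none fell, against 0.772% and 0.0411% of all genes tested. The median log2 fold change was 2.03, or 1.497 with the 7 members that had no count in the low group set at the floor. Cyp3a11 was 0 to 0.12 TPM (median 0.04) in low and 0.32 to 2.99 TPM (median 1.16) in high libraries (4.14 ± 0.65 SE, edgeR adjusted p = 0.0026). Cyp2d9, a steroid hydroxylase of male liver, was 0 to 0.17 TPM against 0.3 to 3.47 TPM (3.85 ± 0.78 SE, adjusted p = 0.0170), and Cyp2f2 was 0 to 0.11 TPM against 0.29 to 2.89 TPM (3.64 ± 0.62 SE, adjusted p = 0.0045). Cyp4a12a, which makes 20-HETE in male mice, had 1 count over the 7 low libraries and 0.04 to 0.6 TPM in the high ones (adjusted p = 0.00087). None of these 4 overlapped. Within lane 2 Cyp3a11 averaged 1.88 TPM in high and 0.08 TPM in low libraries, and within lane 4 it averaged 1.16 and 0.1 TPM. All 18 were among 63 genes with a median below 1 TPM in the low libraries. The others that rose were Cyp1a2, Cyp2a5, Cyp2a12, Cyp2c29, Cyp2c50, Cyp2c54, Cyp2c68, Cyp2d10, Cyp2d26, Cyp2d40, Cyp2j5, Cyp3a25, Cyp4a14 and Cyp8b1.

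The 10 Cyp genes with a median of at least 1 TPM in the low libraries did not pass, with log2 fold changes from -0.17 to 0.63, again near the background of 0.0619%. Cyp4b1, a fatty acid hydroxylase, was 9.51 to 16.3 TPM in low and 10.97 to 17.1 TPM in high libraries (0.18 ± 0.15 SE, edgeR adjusted p = 0.678). Cyp27a1, a mitochondrial sterol hydroxylase, was 8.39 to 12.4 TPM against 8.99 to 21.8 TPM, with 5 of 8 high libraries above all low ones (0.61 ± 0.18 SE, adjusted p = 0.200). Cyp2d22 was 3.36 to 5.44 TPM against 3.12 to 9.26 TPM (0.63 ± 0.24 SE, adjusted p = 0.426) and Cyp2u1 was 2.16 to 4.15 TPM against 2.35 to 3.75 TPM (0.06 ± 0.17 SE, adjusted p = 0.919). The other 6 were Cyp20a1, Cyp2j6, Cyp39a1, Cyp4f13, Cyp4f16 and Cyp51.

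**Figure D3:**
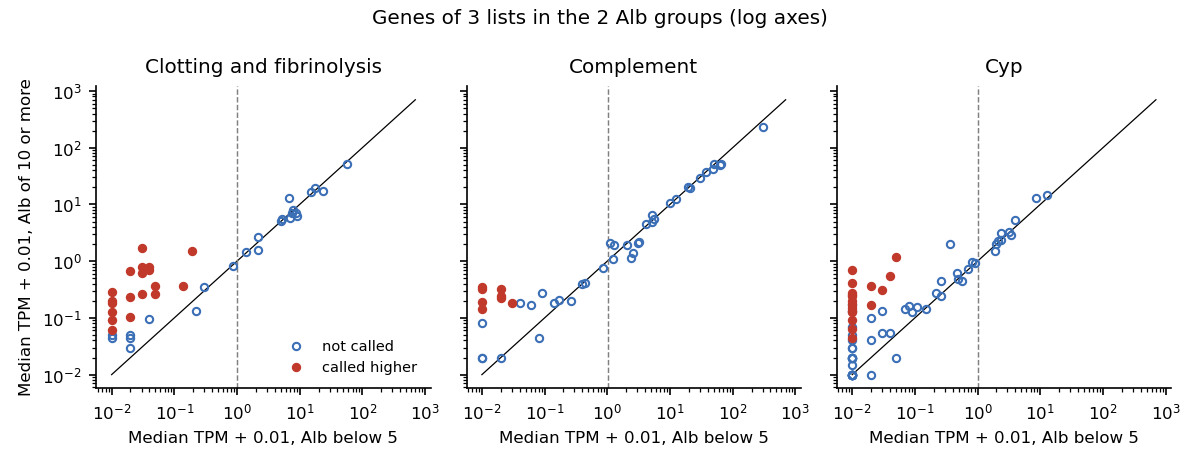
Median TPM + 0.01 of high against low libraries (log axes) for the clotting, complement and Cyp genes tested, with the line of equality and a dashed line at 1 TPM. Filled red points are the 19, 8 and 18 genes called higher, all left of 1 TPM, and open points are genes not called.

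Lists for liver cells other than hepatocytes were too short for a count of 0 to differ from the background of 0.772%. None of the 8 Kupffer cell, 8 sinusoidal endothelial, 6 stellate cell or 7 cholangiocyte genes passed the edgeR threshold, and 2, 1 and 2 of the stellate (lower), stellate (higher) and cholangiocyte (higher) genes had an unadjusted p below 0.05. The highest members were Folr2 (9.87 to 15.5 TPM in low and 8.95 to 16.9 TPM in high libraries) and Il18bp of the Kupffer list, Fcgr2b and Lyve1 of the sinusoidal list, Ecm1 and Hand2 of the stellate list and Spp1 and Sox9 of the cholangiocyte list, all with overlap. Several of these genes are also expressed by macrophages and fibroblasts of the heart. Summed TPM was 19.6 to 33 in low and 15.8 to 31.9 in high libraries for the Kupffer list, and 7.86 to 15.2 and 9.01 to 16.1 for the sinusoidal list. It was 29 to 37.8 and 30.3 to 57.9 for the stellate list and 0.58 to 5.49 and 0.36 to 2.91 for the cholangiocyte list.

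The lists for cells of the heart and fat held no called gene either, and these counts too are near the background: 18 cardiomyocyte, 12 fibroblast, 10 endothelial, 9 smooth muscle and pericyte, 11 immune, 7 erythrocyte, 7 atrial and 8 adipocyte genes. The median log2 fold changes were 0.08 for cardiomyocytes, -0.13 for fibroblasts, 0.17 for endothelium, 0.13 for smooth muscle and pericytes, 0.04 for immune cells and 0.50 for erythrocytes. Myl2, the ventricular myosin light chain, was 15460 to 24488 TPM in low and 16727 to 25644 TPM in high libraries, and Mb (myoglobin) 14040 to 17771 TPM against 13186 to 16547 TPM. The other leading members, Gsn and Dcn of fibroblasts, Fabp4 and Ly6c1 of endothelium, Rgs5 and Acta2 of smooth muscle and pericytes, Lyz2 and Csf1r of immune cells and Cidea and Cfd of adipocytes, had adjusted p from 0.551 to 0.989 and overlapped. Hbb-bs, a beta globin, was 333 to 1123 TPM against 194 to 1676 TPM, and Hba-a2, an alpha globin, 288 to 840 TPM against 189 to 1314 TPM. The atrial list had a median of -1.28, with no member called and none of the 7 positive in sign. Myl7, the atrial myosin light chain, was 0.36 to 214 TPM (median 48.7) in low and 0.17 to 338 TPM (median 0.9) in high libraries. Its log2 fold change was -3.06 ± 1.88 (SE, edgeR adjusted p = 0.556). The high value of 338 TPM was WT mouse 45-1, and every other high library had at most 2.27 TPM. Nppa, atrial natriuretic peptide, was 489 to 815 TPM against 317 to 791 TPM. Cardiac stress genes, which rise with pressure load, had a median of -0.24 over 7 genes, acute-phase genes of the heart -0.27 over 9 genes and skeletal muscle genes 0.29 over 9 genes, with none called. Acta1, in the stress and skeletal muscle lists, was 479 to 1776 TPM against 291 to 1290 TPM, and Ankrd1 413 to 1221 TPM against 324 to 830 TPM. Tnni2 of the skeletal muscle list and Fgl2 and Serpina3n of the acute-phase list overlapped too. Of 8 lung genes 5 were tested, and of 10 exocrine pancreas genes 8 were tested, with none called (the highest were Ager and Scgb1a1, and Cela1 and Cela2a, each below 1 TPM in every library compared).

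Among 11313 genes with a median of at least 1 TPM in the low libraries, 7 were higher (0.0619%) and 5 lower (0.0442%). These counts were unstable: with 1 library left out they ran from 0 (without WT mouse 43-3 or 84-2) to 33 (without WWP2Mut/Mut mouse 24-3) higher and from 1 to 13 lower, and DESeq2 gave 35 and 20. Malat1 lost its call in 12 of 32 alternatives, and Rbm12b1, Rbm12b2 and Resf1 in 21 each. Of the 7, 3 belong to the liver lists, Apoa2 and Ahsg among them, and Malat1, Rbm12b1, Rbm12b2 and Resf1 do not. Malat1, a long non-coding RNA kept in the nucleus, was 13.3 to 40.1 TPM (median 21.0) in low and 32.0 to 92.3 TPM (median 52.5) in high libraries, and 5 of 8 high libraries lay above all low ones (log2 fold change 1.42 ± 0.29 SE, edgeR adjusted p = 0.0208). Rbm12b1 and Rbm12b2, neighbouring paralogs that encode RNA-binding proteins, were 0.95 to 1.89 TPM against 1.52 to 3.98 TPM and 0.67 to 1.24 TPM against 1.13 to 2.28 TPM (0.98 ± 0.22 SE, adjusted p = 0.0311, and 0.81 ± 0.18 SE, adjusted p = 0.0381). Resf1, a regulator of retroelement silencing, was 1.35 to 2.89 TPM against 2.06 to 5.71 TPM (0.91 ± 0.21 SE, adjusted p = 0.0469). In all 4 the groups overlapped.

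Of the 188 genes called higher, 157 were highest in WT mouse 45-1, which had the most Alb. Malat1, Rbm12b1 and Rbm12b2 were highest in WWP2Mut/Mut mouse 52-1, the high library with the least Alb, and Resf1 in WT mouse 25-3, where 17 of the 188 were highest, 11 of them in the liver, clotting, complement or Cyp lists. Within lane 2 Malat1 averaged 70.0 TPM in high and 28.2 TPM in low libraries, and within lane 4 it averaged 36.0 and 27.9 TPM with overlap. Rbm12b1 averaged 2.54 and 1.21 TPM in lane 2 and 1.95 and 1.7 TPM, with overlap, in lane 4, and Rbm12b2 1.57 and 0.815 TPM and 1.42 and 1.1 TPM. Resf1 averaged 3.1 and 2.36 TPM and 4.05 and 2.63 TPM, with overlap in both lanes. With gene body coverage as a further covariate the log2 fold change of Malat1 was 0.89 (adjusted p = 0.014) and that of Resf1 1.02 (adjusted p = 0.010). Those of Rbm12b1 and Rbm12b2 were 0.78 and 0.62 (adjusted p of 0.112 and 0.136).

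The 5 lower heart-expressed genes were Spsb4, Gypc, Rasl11b, Fam78a and Lmcd1. Spsb4, an adaptor of a ubiquitin ligase complex, was 3.41 to 10.8 TPM (median 4.69) in low and 2.04 to 7.05 TPM (median 3.79) in high libraries (log2 fold change -0.94 ± 0.16 SE, edgeR adjusted p = 0.0044). Gypc, glycophorin C of the membrane skeleton, was 10.5 to 18.9 TPM against 7.74 to 13.1 TPM (-0.45 ± 0.09 SE, adjusted p = 0.0130). Rasl11b, a small GTPase, was 8.66 to 37.7 TPM against 6.71 to 17.4 TPM (-0.75 ± 0.15 SE, adjusted p = 0.0196). The groups overlapped in all of them. Fam78a was 3.9 to 9.09 TPM against 2.51 to 6.82 TPM (-0.65 ± 0.14 SE, adjusted p = 0.0231), and Lmcd1, a LIM-domain cofactor of GATA6, was 18.7 to 34.1 TPM against 12.6 to 24.7 TPM (-0.41 ± 0.09 SE, adjusted p = 0.0298).

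The WT low libraries, 43-3 and 84-2, held the highest Spsb4 (10.8 and 8.15 TPM), Rasl11b (37.7 and 30.1 TPM) and Lmcd1 (34.1 and 29.4 TPM) of all libraries. Within lane 4, where both low libraries were WWP2Mut/Mut and both high ones WT, Spsb4 averaged 6.62 TPM in high and 3.9 TPM in low libraries, the opposite order. Rasl11b (14.7 and 11.9 TPM), Fam78a (6.18 and 5.66 TPM) and Lmcd1 (24.2 and 21.0 TPM) had that order in lane 4 too, and Gypc did not (10.97 and 12.8 TPM). Within lane 2 all 5 averaged less in the high libraries. Without WT mouse 43-3, 1 lower heart-expressed gene was called, and without WT mouse 84-2 there were 2, while no higher heart-expressed gene was called without either one. The other 5 genes called lower, Chil1, Gm16867, Mum1l1 and Ccn4 among them (named after the result), had medians below 1 TPM in the low libraries.

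**Figure D4:**
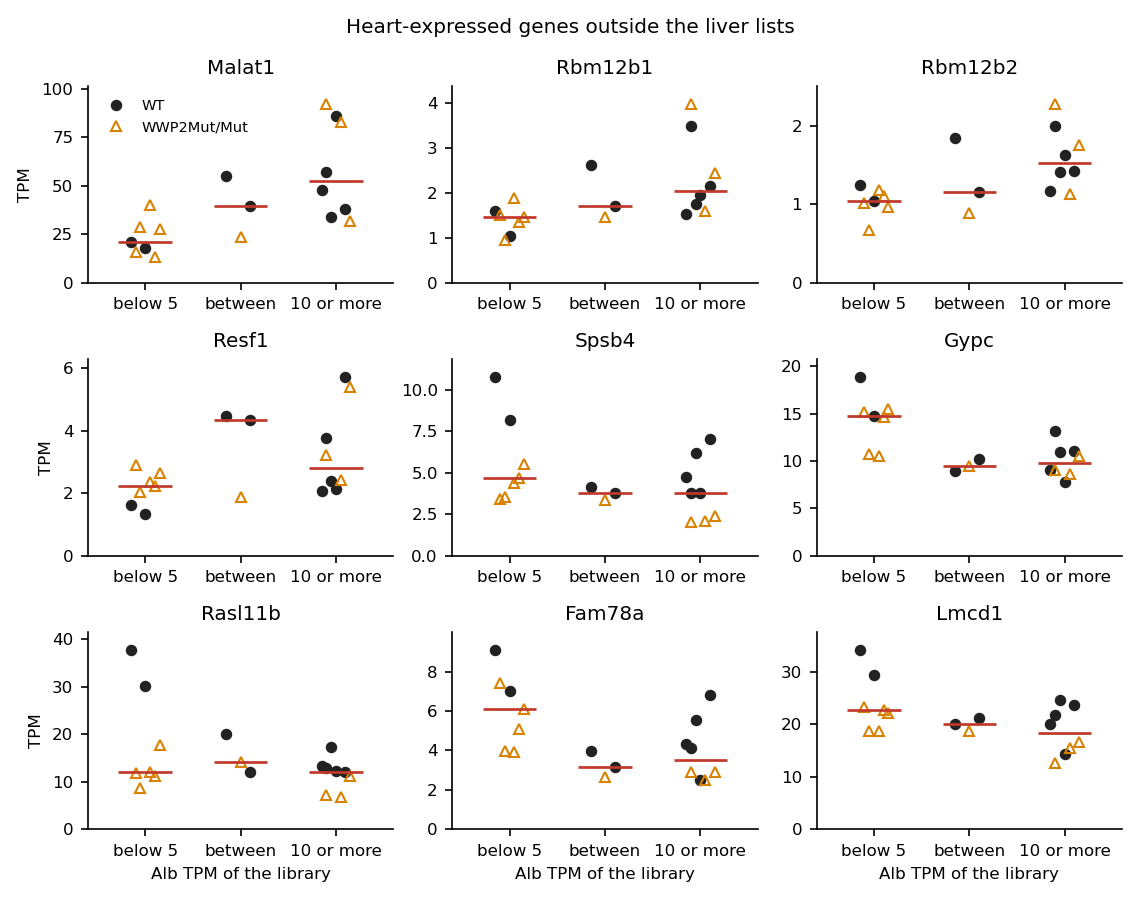
TPM of the 9 heart-expressed genes outside the liver lists that were called, by Alb group, with 1 point per library (filled circles WT, open triangles WWP2Mut/Mut) and a red line at the group median. The groups overlap in every panel, and the WT low libraries lie highest for Spsb4, Rasl11b and Lmcd1.

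The make-up of the liver transcripts was described over 58 genes that were chosen for being high in these same 8 libraries, so genes that vary among them are under-represented. For these genes, called higher with a high median of at least 0.5 TPM and a low median below 1 TPM, the level was divided by the sum of Apoa1, Ttr and Mup3 in each library and set against the median of the 8 libraries. Between 53 and 58 of the 58 genes lay within 2-fold of that median in 7 libraries, and 48 did in WT mouse 25-3. There 9 genes exceeded it, led by Orm1 (orosomucoid, an acute-phase protein), at 8.22 times the median. Orm1, Hpx and Fgb were picked with their values in view. Hpx (hemopexin, which binds heme) was at 7.24 times, Fga at 5.09, Fgb at 4.28 and Fgg at 3.62 times the median. In WT mouse 45-1 the highest was Bhmt, at 2.87 times the median.

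WT mouse 25-3 also had the highest levels of 3 acute-phase genes outside that set, named here after their values were seen. Saa1 and Saa2, serum amyloid A genes, were 60.2 and 63.3 TPM in it. Over the low libraries they were at most 0.15 and 0.26 TPM, and over the 8 high libraries their medians were 0.17 and 0.04 TPM. Hp, haptoglobin, was 25.6 TPM in it, 11.4 TPM in WT mouse 45-1 and 0.83 to 2.57 TPM in the low libraries. Per sum of the 3 markers, Hp was at 6.97 times the median of the 8 libraries. Saa1 and Saa2 are given no fold, since their medians rest on few or no counts. Neither Saa1, Saa2 nor Hp passed the test between Alb groups (edgeR adjusted p of 0.469, 0.480 and 0.469).

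Of 10 kidney genes 1 was called higher, against 0.772% of all genes tested, and the median log2 fold change of the list was 2.42. The library with the most kidney transcripts was not the one with the most liver RNA. Kap, an androgen-regulated protein of the proximal tubule, was 0 to 1.48 TPM (median 0.29) in low and 0.29 to 34.4 TPM (median 5.53) in high libraries (log2 fold change 4.19 ± 0.99 SE, edgeR adjusted p = 0.0536). It was highest in WT mouse 25-3, followed by WWP2Mut/Mut mouse 54-1 at 14.6 TPM, and it was 2.78 TPM in WT mouse 45-1, which had the most Alb. Slc34a1, the phosphate transporter of that tubule, was 0 to 0.07 TPM against 0 to 0.9 TPM and was also highest in mouse 25-3 (adjusted p = 0.170). Miox, a kidney enzyme of inositol breakdown that is in none of the lists and was picked with its values in view, was at most 0.02 TPM in low and 1.34 TPM in mouse 25-3 (adjusted p = 0.0251). The called gene was Lrp2, the endocytic receptor megalin, at 0 to 0.01 TPM in low and 0 to 0.07 TPM in high libraries (adjusted p = 0.0216), and 6 of the 10 had an unadjusted p below 0.05 in the higher direction, against 6.58% of all genes tested. The summed kidney list was 0.09 to 1.7 TPM in low and 0.4 to 35.9 TPM in high libraries, of which 33-1 and 52-1 lay within the range of the low ones. Of 4 intestinal and gastric genes tested, Fabp2 and Apoa4 were called, at no more than 0.46 and 0.31 TPM, and liver expresses Apoa4 too, while Vil1 was at most 0.16 TPM.

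**Figure D5:**
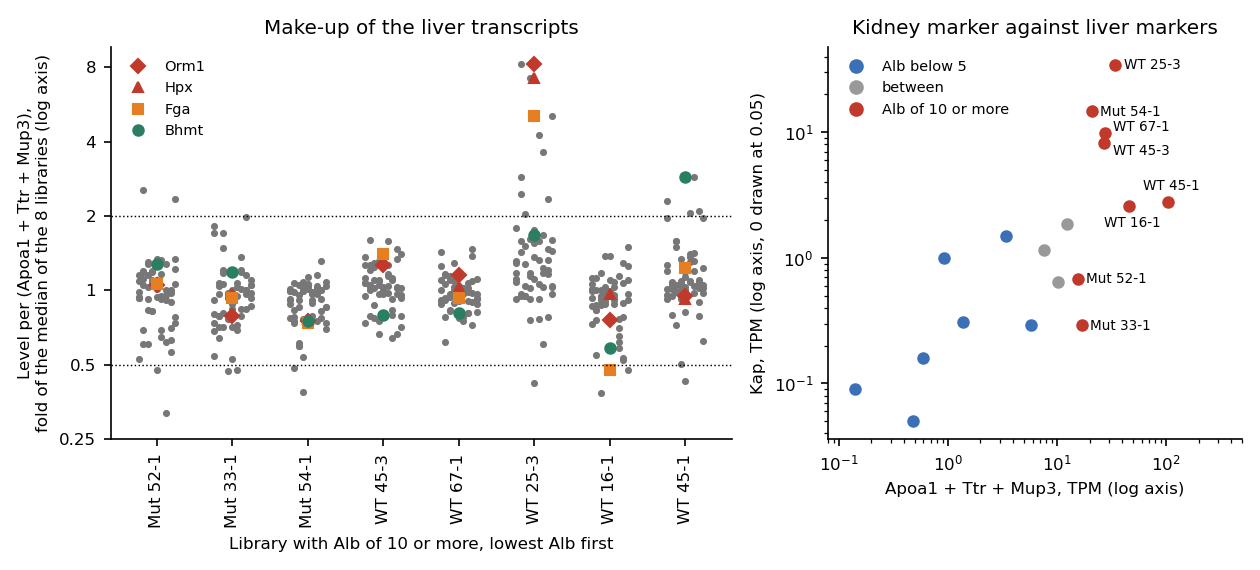
Left, level of 58 called genes per sum of Apoa1, Ttr and Mup3 in each high library, as fold of the median of the 8 libraries (log axis), with Orm1, Hpx, Fga and Bhmt marked. Right, Kap against the sum of the 3 liver markers in all 18 libraries (log axes), where WT mouse 25-3 is highest in Kap and WT mouse 45-1 in the liver markers.

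The summed liver plasma protein list, which does not hold Alb, was compared between genotypes over all 18 libraries, a test that does not use the split by Alb. It was 286 ± 219 TPM (SD, n = 9) in WT and 134 ± 46.4 TPM (SD, n = 9) in WWP2Mut/Mut libraries (exact permutation test, two-sided, p = 0.0397). The WT values ran from 89.5 to 745 TPM and the WWP2Mut/Mut values from 82.1 to 209 TPM, so they overlapped. Leaving out WT mouse 45-1 gave a difference of -94.7 TPM (exact permutation p = 0.0794), and 10 of the 18 tests that left out 1 library had a p of 0.05 or more. The WT mean was the higher one in lanes 1, 2 and 4 (303 and 177, 446 and 133, 300.4 and 101 TPM) and the lower one in lane 3 (89.6 and 129 TPM). A test of whether the difference between Alb groups itself differed by genotype called none of 24344 genes, Alb included, with 648 at an unadjusted p below 0.05 (edgeR interaction term). The WT low group held only 2 libraries, so this test could miss a difference and does not show that the genotypes were alike.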

How the data were processed

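Total RNA came from the left ventricles of 9 WT and 9 WWP2Mut/Mut mice. Per the labels and the study's methods, the authors made poly(A)-selected libraries, aligned the reads to GRCm38 with STAR 2.5.2b and estimated gene levels with RSEM 1.2.31. The deposited tables hold expected counts (RSEM estimates, not normalised, for 51435 Ensembl genes) and TPM, and 5.11% of the count values were not whole. The deposited TPM columns sum to 671770 to 826381, so they do not hold every gene of the original scaling. The deposited sample sheet gives the lane, how concentrated each RNA was, a ratio of absorbance to that of protein and another to that of salts, and the fraction of coverage in part of the gene body. One protein ratio of 214 was left out of that measure, and an RNA concentration of 1.68 for WT mouse 43-3, far below the others, was kept.

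Counts were rounded and tested with edgeR 4.0.16 (TMM, quasi-likelihood test, genotype as covariate, R 4.3.3) on genes with more than 1 count over the libraries fitted, with Benjamini-Hochberg adjustment and a threshold of 0.05. The fit held 24344 genes, and Alb was left out of all counts of calls. Heart-expressed means a median of at least 1 TPM in the low libraries. Exact permutation tests used scipy 1.17.1. limma 3.58.1 and DESeq2 1.42.0 were alternatives. Alternative covariates, Alb limits, scalings, filters and left-out libraries were also run. The edgeR step was checked on simulated counts. Named genes were the 3 markers besides Alb, the 3 highest and the smallest-p called genes of each liver, clotting, complement and Cyp list, the 4 highest heart-expressed genes of the last 3 lists, up to 6 called heart-expressed genes per direction outside these lists, Wwp2, and the leading or called genes of other lists. Some genes that this rule names are not reported here. Genes outside this rule that are given with values are marked where they stand, and other genes of the lists are only named. The members and lists were chosen with earlier results of these data known. Samples are different mice, and the smallest chi-square per gene between libraries of 1 genotype was 14.0, so none was a repeat of another. Median log2 fold change over all genes was 0.03.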

Additional observations from a re-analysis of the deposited data

Results flagged for a closer look

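Of 98 group values examined with Dixon's test for 1 value far from the rest, 10 stood out, and chance gives about 1 in 20 groups. In the high libraries 7 of these were WT mouse 45-1. Its Apoa1 was 40.74 TPM (next highest 16.41), Ttr 22.4 TPM (10.6) and Mup3 41.4 TPM (19.24). Its sum of liver enzymes and transporters was 764.1 TPM (next highest 470.9) and its sum of Cyp genes 114.7 TPM (73.12). Its stellate cell list summed to 57.89 TPM (39.22) and its adipocyte list to 46.26 TPM (32.55). In this mouse Hand2 of the stellate list was 28.43 TPM, Cfd of the adipocyte list 16.58 TPM and the atrial gene Myl7 338 TPM. Which tissue these sums came from was not tested. WT mouse 25-3 stood out in the kidney list, at 35.93 TPM (15.26), and in the acute-phase list of the heart, at 46.32 TPM (27.06). In the low libraries Cyp27a1 was 12.37 TPM in WWP2Mut/Mut mouse 24-3 (next highest 9.5).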

How the results depend on the processing

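Counts are given in the order all genes higher, all lower, heart-expressed higher, heart-expressed lower, plasma proteins, enzymes, clotting, complement and Cyp genes higher, which were 188, 10, 7, 5, 35, 40, 19, 8 and 18. With lane and RNA concentration they were 18, 1, 0, 1, 10, 1, 5, 0 and 1, and with DESeq2 291, 29, 35, 20, 43, 47, 21, 13 and 25. With limma on log2(TPM + 1) they were 16, 0, 1, 0, 13, 1, 0, 0 and 0, and on log2(TPM + 0.1) 94, 1, 3, 1, 31, 21, 9, 3 and 7. Splitting all 18 libraries at 10 TPM of Alb gave 94, 1, 1, 0, 12, 16, 12, 3 and 6, splitting at 5 TPM gave 132, 9, 4, 5, 32, 31, 13, 4 and 12, and Alb as a number gave 370, 49, 42, 26, 46, 53, 23, 12 and 30. Within WT they were 89, 3, 2, 2, 27, 20, 11, 5 and 8, and within WWP2Mut/Mut 2, 0, 0, 0, 0, 1, 0, 0 and 0. Without the genotype term they were 252, 3, 9, 2, 44, 51, 20, 12 and 23. Of the alternatives chosen after seeing the data, genotype and lane over all 15 libraries, and lanes 2 and 4 with lane as a term, gave 0 for each, and leaving out WT mice 25-3 and 45-1 gave 181, 21, 10, 10, 33, 42, 17, 8 and 16. The causes of these moves were not tested. The size factors of DESeq2, TMM without the liver lists, filterByExpr and gene body coverage kept each count within 1.5 times.

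Leaving out 1 library at a time gave 94 to 234, 2 to 27, 0 to 33, 1 to 13, 26 to 37, 20 to 41, 10 to 19, 3 to 9 and 7 to 19. The number higher fell below its 1.5-fold range without WT mouse 43-3 (94) and WT mouse 84-2 (101), the 2 WT low libraries. Without them enzymes were 23 and 20, clotting 10 and 11, complement 3 and 4, and Cyp genes 7 and 7. Genes lower were 27 without WT mouse 45-1, 20 without WWP2Mut/Mut mouse 33-1, 16 without 24-3, 6 without 54-1, 2 without 43-3 and 6 without 84-2. Heart-expressed genes higher were 33 without WWP2Mut/Mut mouse 24-3, 15 without 33-1, 4 without 22-3 or 53-1 and 3 without 62-1 or 8-2. Heart-expressed genes lower were 13 without 33-1, 12 without 45-1, 10 without 25-3, 9 without 24-3 and 2 without 54-1. Over 32 alternatives for each of 12 named genes, 233 of 384 values kept direction and call, 151 lost the call and 0 turned direction.

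The genotype difference of the plasma protein sum was -0.81 on the log2 scale (exact permutation p = 0.0570) and -177 to -94.7 TPM with 1 library left out. The difference of the protein absorbance ratio turned to -0.00257 with a split at 10 TPM of Alb, and the RNA concentration difference to -5.56 without WT mouse 43-3. With 1 library left out the differences ran from -5.56 to 47.6 for RNA concentration, 0.005 to 0.0164 for the protein absorbance ratio, 0.0942 to 0.326 for the salt absorbance ratio, 0.00416 to 0.00796 for gene body fraction and -3361000 to -1593000 counts for library total. Genes below 1 TPM rest on few counts, 44 of the 188 on 3 or fewer in the low group. No paired analysis was possible because the genotypes share no replicate numbers.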
